A study of Mus musculus with 12 samples.

Results

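The set described here holds 10 genes through which macrophages sense microbial molecules, namely the Toll-like receptors Tlr2, Tlr4, Tlr7, Tlr8, Tlr9 and Tlr13, the co-receptor Cd14, and the signalling proteins Myd88, Irak4 and Traf6. The members were chosen by name as receptors, co-receptor and proximal adaptors of 1 pathway, with earlier results of these data known. All 10 were found by symbol among the 12339 genes of the count table. The clearest change was in Tlr9, the receptor for unmethylated DNA, whose transcript was lower on the high-fat diet than on chow in wild-type macrophages. Some genes near Tlr9 on chromosome 9 were lower in the same comparison, and their part in the Tlr9 result was not tested. Cd14 rose modestly in the same comparison, a call close to the threshold that was lost in 8 of 21 alternative analyses. No member passed the test between genotypes on either diet.

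RNA was sequenced from mouse macrophages of 2 genotypes, wild type (WT) and meKO, on 2 diets, chow and a high-fat Western-type diet (HFD). Because the title of the series refers to the epsilon isoform of protein kinase C in myeloid cells, which Prkce encodes, meKO is taken to mean a myeloid knockout of Prkce. The recombinase line, the strain and the sex are not given in the sources used here. Per the labels, all mice, chow controls included, received the AAV8PCSK9 vector at 8 weeks of age, which removes the LDL receptor from hepatocytes, and were studied 4 weeks later. Sterile thioglycolate drew the macrophages into the peritoneum, from which lavage recovered them, so these were elicited rather than resident cells. Genotype and diet gave 4 groups of 3 libraries, called WT chow, meKO chow, WT HFD and meKO HFD. The labels describe more animals than these 12 libraries and do not say whether animals were pooled, so p-values measure the spread between these libraries.

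Toll-like receptors are membrane proteins that bind conserved microbial molecules through a leucine-rich ectodomain. Tlr2 and Tlr4 act at the cell surface on bacterial lipoproteins and lipopolysaccharide, and Cd14 hands lipopolysaccharide to the Tlr4 complex. Tlr7, Tlr8, Tlr9 and Tlr13 act in endosomes on RNA or DNA, the last of them on bacterial ribosomal RNA. All of these receptors can recruit the adaptor Myd88, which assembles Irak kinases such as Irak4, and the ubiquitin ligase Traf6 then passes the signal towards NF-kB and MAP kinases.

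Total counts per library ran from 25844958 to 37282772. In the check of the knockout, Prkce stood at 2.01 to 4.44 CPM (counts scaled to a common library size with TMM factors) in the 6 WT libraries and at 0.950 to 1.78 CPM in the 6 meKO libraries. Lyz2, a gene of myeloid cells, ran from 30480 to 53840 CPM in WT and from 69.3 to 21310 CPM in meKO, with meKO chow library 2 far below the rest. A second feature touched many genes: in WT chow libraries 1 and 2 the deviation from the mean of all libraries rose with transcript length (Spearman's rho 0.62 and 0.66 across genes), against -0.45 to 0.14 in the other 10. All 7 macrophage markers were listed, with Adgre1 (F4/80) at 513 to 697 CPM and Cd68 at 2538 to 3658 CPM. A gene called here had an adjusted p under 0.05 in edgeR's quasi-likelihood test, adjusted over all 12339 genes.

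Levels were compared between members per kilobase of exon, as CPM per kb over all 12 libraries. Cd14 stood highest at 110 ± 16.9 CPM per kb (SD, n = 12), followed by Tlr13 at 93.6 ± 7.90. Their ranges overlapped, with Cd14 above Tlr13 in 9 of 12 libraries. Tlr7 (58.5 ± 9.92), Tlr8 (51.3 ± 9.02) and Myd88 (45.7 ± 5.05) came next, each overlapping its neighbour in the order. Tlr4 followed at 35.1 ± 3.20 CPM per kb, below Myd88 in every library although the ranges of the pair overlapped. Tlr2 (14.5 ± 2.05), Irak4 (7.84 ± 1.07) and Traf6 (5.16 ± 0.647) were lower. Tlr9 was the lowest member at 1.09 ± 0.735 CPM per kb, with 26 to 335 counts per library, so its values carry more counting error than those of the other members.

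**Figure D1:**
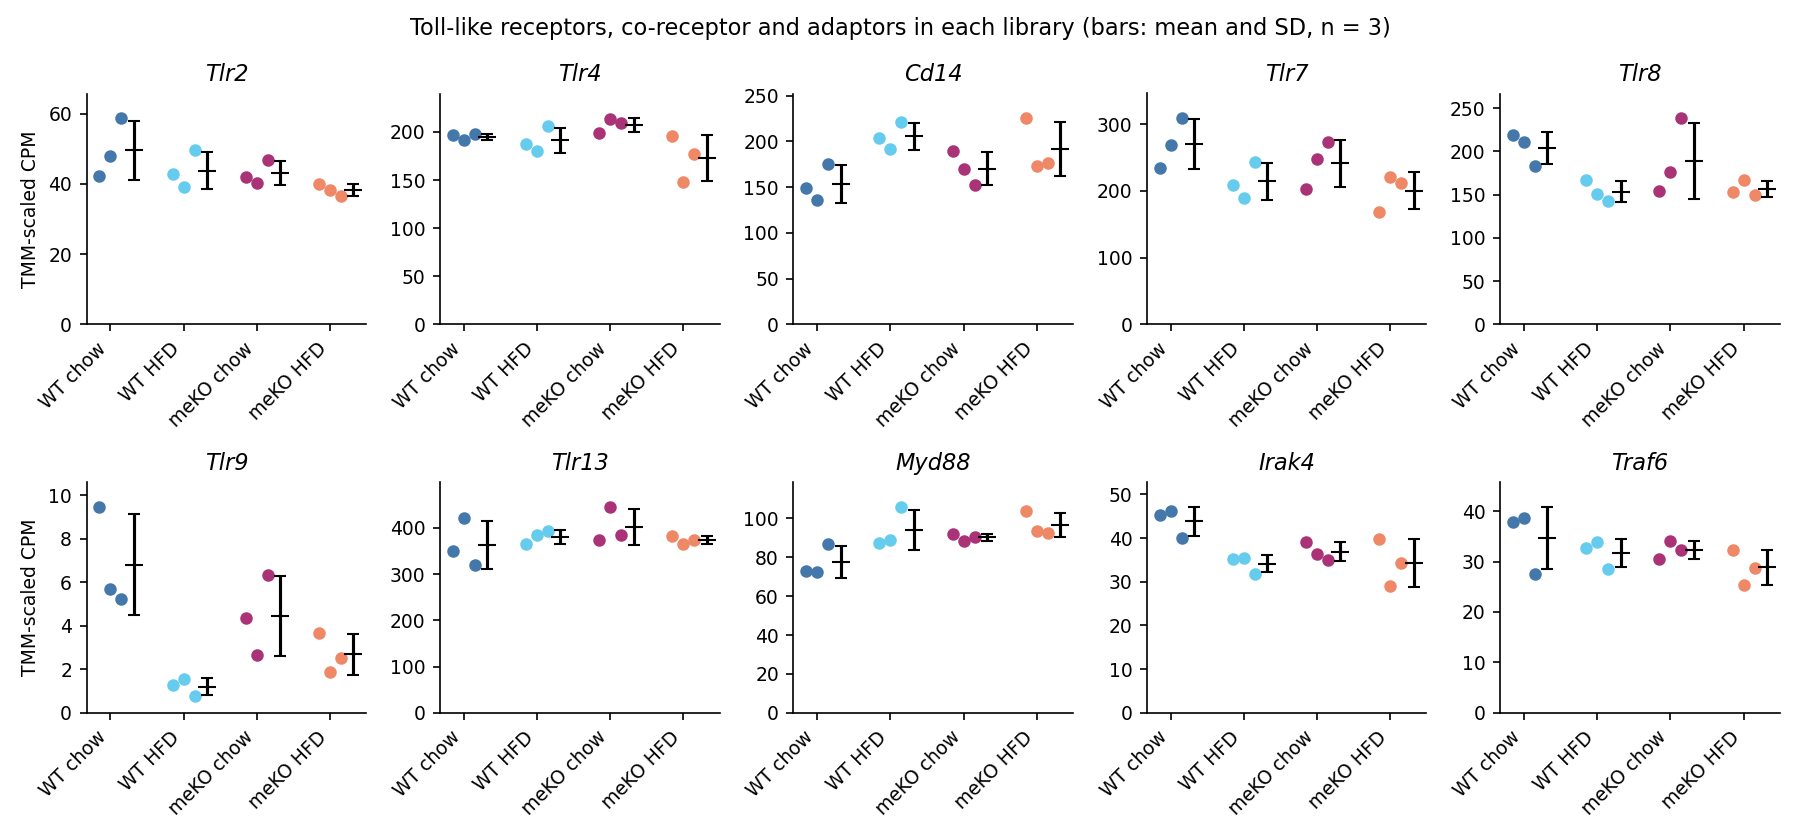
TMM-scaled CPM (vertical axis, from 0) of each member in the 12 libraries, by group. Points are libraries and bars the mean and SD of 3 libraries. The WT HFD points of Tlr9, at 0.782 to 1.55 CPM, lie below every other Tlr9 point. Tlr7, Tlr13 and Traf6 overlap between diets in both genotypes and between genotypes on both diets. Each remaining member separates in some of these comparisons.

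Across the set, 2 of 10 members were called between diets in WT, where 21.3% of all genes were called: 1 rose (Cd14), against 9.5% of all genes called higher, and 1 fell (Tlr9), against 11.8% called lower. The count was 1, Tlr9, without WT chow library 1 or 2, any of the 3 WT HFD libraries or meKO chow library 2, and 5 without WT chow library 3. The share of all genes called moved too, to 1.05% and 2.59% without WT chow library 1 or 2, to 3.73%, 13.6% and 0.778% without WT HFD library 1, 2 or 3, to 18.7% without meKO chow library 2 and to 39.9% without WT chow library 3. The diet ranges did not overlap for 5 of 10 members in WT, against 39.3% of all genes. In meKO 0 of 10 members were called between diets by edgeR (0.105% of all genes), and 1 had an unadjusted p under 0.05 (15.9% of all genes). DESeq2 also called 0 there (1.84% of all genes). The meKO diet ranges did not overlap for 3 of 10 members, against 19.7% of all genes. The median log2 fold change of the members was -0.16 in both genotypes, beside -0.035 in WT and -0.006 in meKO over all genes. These counts are near the background of the whole table, so they describe the members and do not set the group apart.

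**Figure D2:**
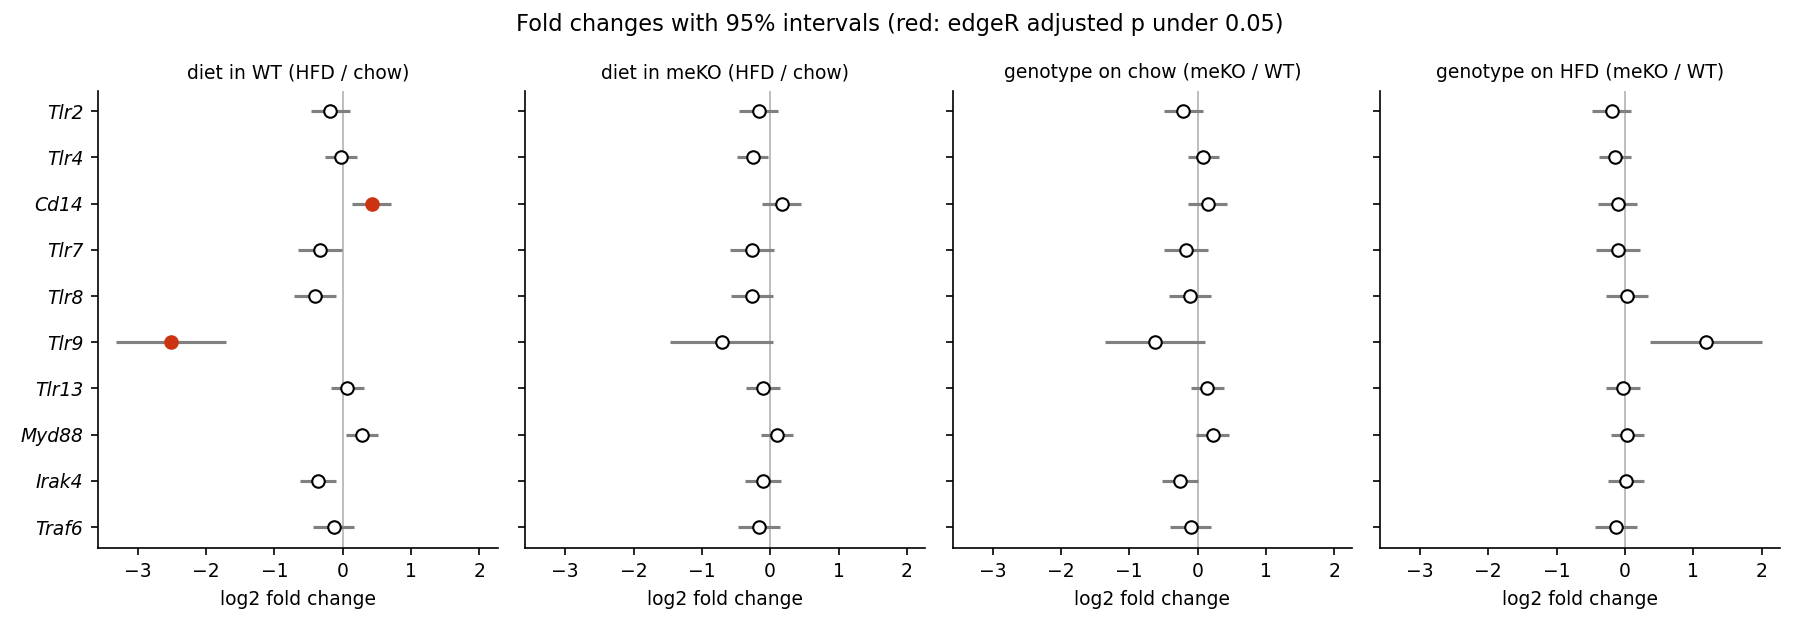
Log2 fold change of each member (points) with its 95% interval from edgeR (bars) in the 4 simple comparisons, with called members filled in red. Tlr9 at -2.51 and Cd14 at 0.42 are the filled points, both in the diet comparison in WT.

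Between genotypes, 0 of 10 members were called on chow and 0 of 10 on HFD by edgeR, where 0.081% of all genes were called on each diet. On chow 0 members had an unadjusted p under 0.05 (19.8% of all genes), and on HFD 1 did, Tlr9 (4.56% of all genes). DESeq2 called 0 on both diets (5.54% of all genes on chow and 0.43% on HFD), as did limma-voom (0.0162% and 0.0405%). With library quality weights limma-voom called 3 on chow, where that setting called 32.8% of all genes. Without WT chow library 3 edgeR called 1 on chow, and 20.6% of all genes. Ranges did not overlap for 3 members on chow (17.1% of all genes), Tlr4 and Myd88 with higher and Irak4 with lower values in meKO, and for 1 on HFD (10.3% of all genes), Tlr9. The interaction, which asks whether the diet difference depended on genotype, was called for 0 of 10 members, against 0.0162% of all genes, with 1 member at an unadjusted p under 0.05 (6.13% of all genes). Averaged over diets the genotype difference was called for 0 of 10 members, against 0.17% of all genes, with 0 at an unadjusted p under 0.05 (17.7% of all genes). The diet comparisons share their libraries with the genotype comparisons, so the values below stand side by side and do not support each other.

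Among the surface receptors, Tlr2 (Entrez gene 24088, GRCm38 chr3:83836272-83841824) was measured at 42.2, 48.0 and 58.7 CPM in WT chow and at 42.8, 39.0 and 49.5 CPM in WT HFD. In meKO it stood at 41.9, 40.3 and 46.8 CPM on chow and 40.1, 38.3 and 36.7 CPM on HFD. The highest value was in WT chow library 3, and the diet ranges overlapped in WT but not in meKO. The diet difference was -0.18 ± 0.13 in WT and -0.16 ± 0.13 in meKO (log2 fold change ± SE), with 95% intervals of -0.47 to 0.10 and -0.45 to 0.12.

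Tlr4 (Entrez gene 21898, GRCm38 chr4:66827551-66846581), the lipopolysaccharide receptor, was among the steadiest members in WT. In WT it stood at 196, 191 and 197 CPM on chow and at 188, 180 and 206 CPM on HFD, which overlapped. Values were 199, 213 and 209 CPM in meKO chow and 195, 148 and 177 CPM in meKO HFD, with every HFD library below every chow library. The diet difference was -0.029 ± 0.11 in WT (95% interval -0.26 to 0.20) and -0.26 ± 0.11 in meKO (unadjusted p = 0.0325, edgeR adjusted p = 0.291), and neither was called. The interval in WT spans changes of less than 0.3 log2 units in either direction.

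Cd14 (Entrez gene 12475), which lacks a signalling domain of its own and presents lipopolysaccharide, rose on HFD in WT. The values were 149, 136 and 175 CPM in WT chow and 203, 192 and 222 CPM in WT HFD, so each HFD library exceeded each chow library. In meKO the libraries stood at 189, 169 and 152 CPM on chow and 225, 173 and 176 CPM on HFD, which overlapped. The WT difference was 0.42 ± 0.13 on the log2 scale (edgeR adjusted p = 0.0399) and the meKO difference 0.17 ± 0.13 (adjusted p = 0.524). The difference between these effects was -0.25 ± 0.19 (adjusted p = 0.816) and was not called. The WT call lies close to the threshold and was made in 13 of 21 alternative analyses: it was lost with library totals (0.34, adjusted p = 0.0811), with a correction for length and GC content (0.24, adjusted p = 0.188), and without WT chow library 1 or 2, any of the 3 WT HFD libraries, or meKO chow library 2 (adjusted p 0.0513 to 0.157).

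The endosomal receptors include Tlr9, the member with the largest diet difference. The sequences upstream of Tlr9 and Tlr8 are shown because these had the steadiest diet calls among the members whose sequence was read. That of Myd88, the adaptor they share, is shown as well. Each is the 250 bases before the annotated start, 5′ to 3′ along the gene, from RefSeq on GRCm38.p6. Capitals mark matches on either strand to simple motif letters: GAGGAA for PU.1, an ETS factor that macrophages need, TGANTCA for AP-1, GAAANNGAAA for IRF factors and GGGNNNNNCC for NF-kB.
Tlr9, chr9:106222348-106222597, plus strand: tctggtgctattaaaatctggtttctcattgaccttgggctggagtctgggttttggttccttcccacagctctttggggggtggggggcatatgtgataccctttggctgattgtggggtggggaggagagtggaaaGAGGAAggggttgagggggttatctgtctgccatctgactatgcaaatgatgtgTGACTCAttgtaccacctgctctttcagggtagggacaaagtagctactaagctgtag
Tlr8, chrX:167264330-167264579, minus strand: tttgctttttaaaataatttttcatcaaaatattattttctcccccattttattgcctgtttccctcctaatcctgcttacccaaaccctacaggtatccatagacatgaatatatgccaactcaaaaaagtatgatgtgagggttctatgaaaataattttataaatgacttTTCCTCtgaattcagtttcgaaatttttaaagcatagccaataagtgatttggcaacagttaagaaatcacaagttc
Myd88, chr9:119340019-119340268, minus strand: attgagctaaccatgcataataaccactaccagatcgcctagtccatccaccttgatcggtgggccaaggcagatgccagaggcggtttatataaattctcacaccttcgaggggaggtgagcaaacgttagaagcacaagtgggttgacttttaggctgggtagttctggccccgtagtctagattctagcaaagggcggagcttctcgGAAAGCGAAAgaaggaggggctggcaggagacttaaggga
In Tlr9 the PU.1 letters began at position -112 and the AP-1 letters at -58, counting back from -1 just before the start. Tlr8 held the PU.1 letters on the opposite strand at -77, and Myd88 held the IRF letters at -40. In these 3 sequences no matches to different motifs overlapped.

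Promoter sequences were read for 7 of the 10 members, and those of Tlr4, Tlr7 and Cd14 were not read. The PU.1 letters occurred in 4 of 7 (Tlr8, Tlr9, Tlr13 and Traf6), against 23.1% of 27025 mouse promoters of the same length. NF-kB letters occurred in 3 of 7 (Tlr2, Irak4 and Traf6), against 45.4%. IRF letters occurred in 1 (Myd88), against 3.04%, and AP-1 letters in 1 (Tlr9), against 6.87%. Tlr13 and Traf6, which were called in no comparison, carried the same PU.1 letters as Tlr9 and Tlr8. A match is a run of letters, not a measured binding site.

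Tlr9 (Entrez gene 81897, GRCm38 chr9:106222598-106226876) fell strongly on HFD in WT. The WT chow libraries held 9.48, 5.72 and 5.22 CPM, from 335, 175 and 158 counts, and those on HFD 1.26, 1.55 and 0.782 CPM, from 39, 45 and 26 counts. The mean was 6.81 ± 2.33 CPM on chow and 1.20 ± 0.387 CPM on HFD (SD, n = 3), and the groups did not overlap. The log2 fold change was -2.51 ± 0.38, with a 95% interval of -3.32 to -1.71 (edgeR adjusted p = 0.00489, rank 28 of 12339 genes by p). The call held in 21 of 21 alternative analyses, with adjusted p from 7.93e-09 to 0.0374. Here and in every such count of alternatives, the run without the low-count filter repeats the main fit, because that filter removed no gene.

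In meKO, Tlr9 stood at 4.35, 2.66 and 6.32 CPM on chow and 3.69, 1.87 and 2.50 CPM on HFD. These ranges overlapped, and the diet difference of -0.71 ± 0.35 was not called (95% interval -1.46 to 0.048, edgeR adjusted p = 0.339). On HFD all 3 meKO libraries exceeded all 3 WT libraries, a genotype difference of 1.18 ± 0.38 with a 95% interval of 0.36 to 2.0 (unadjusted p = 0.00786, edgeR adjusted p = 0.754). On chow the genotype difference was -0.62 ± 0.34 (adjusted p = 0.308) and the ranges overlapped. The interaction was 1.80 ± 0.51, with a 95% interval of 0.71 to 2.90, an unadjusted p of 0.00335 and an edgeR adjusted p of 0.773. It passed in 0 of 20 alternatives, so a diet response that differs between genotypes was not established at the threshold used. Averaged over genotypes, the diet difference of Tlr9 was -1.61 ± 0.26 (edgeR adjusted p = 0.00352) and passed in 20 of 20 alternatives.

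Tlr9 is also known as a receptor of B cells and dendritic cells, so markers of both were read beside it. Of 7 B cell markers 6 were listed (all but Pax5), with Cd79a, part of the B cell receptor complex, at 3.40 to 14.0 CPM. Their summed level was 123 to 197 CPM in WT chow, 60.0 to 107 CPM in WT HFD, 88.8 to 192 CPM in meKO chow and 67.4 to 136 CPM in meKO HFD. Ighm was the largest part of the sum in each group. The B cell markers thus moved in the same direction as Tlr9 between diets. In WT 2 of 6 were called lower (median log2 fold change -1.02), against 11.8% of all genes. In meKO 0 of 6 were called (median -0.68), against 0.105% of all genes. Averaged over genotypes 6 of 6 were called lower (median -0.83), against 15.3% of all genes. Between genotypes on HFD 0 of 6 were called (median 0.02), against 0.081% of all genes. Their part in the Tlr9 result was not tested. In these bulk samples fewer cells of a type and less RNA per cell cannot be told apart.

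**Figure D3:**
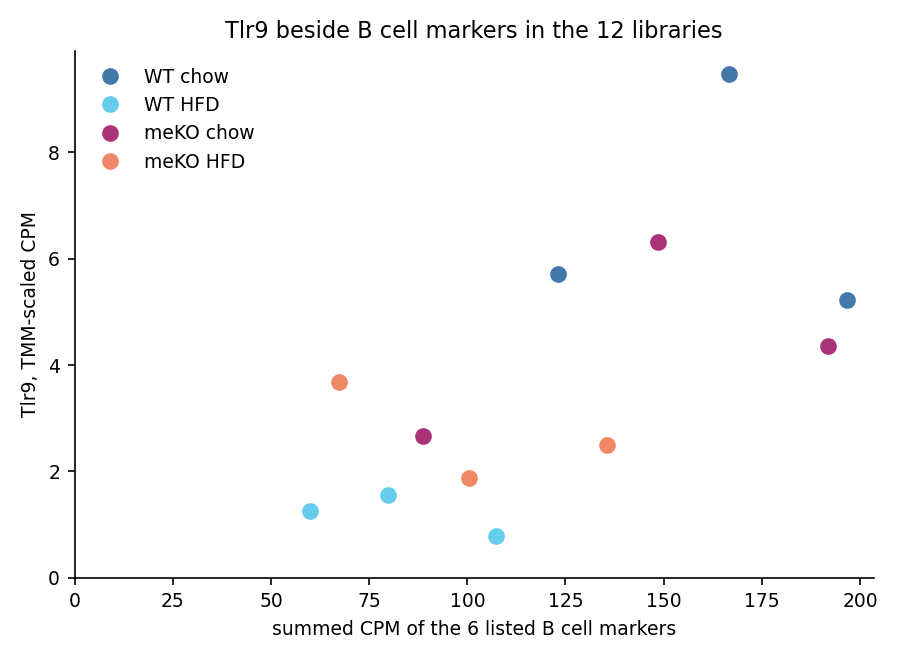
Tlr9 (vertical axis, TMM-scaled CPM) against the summed CPM of the 6 listed B cell markers (horizontal axis), 1 point per library, coloured by group. WT HFD libraries, at 60.0 to 107 CPM of B cell markers, lie lowest for Tlr9, at 0.782 to 1.55 CPM. The meKO HFD libraries, at 67.4 to 136 CPM of markers, had 1.87 to 3.69 CPM of Tlr9. On chow, WT libraries had 123 to 197 CPM of markers and 5.22 to 9.48 CPM of Tlr9. The meKO chow libraries had 88.8 to 192 CPM of markers and 2.66 to 6.32 CPM of Tlr9.

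Other cell types were looked for in the same way. For comparison with the counts below, 9.5% of all genes were called higher and 11.8% lower between diets in WT. Averaged over genotypes 14.9% were called higher and 15.3% lower, and in meKO 0.105% were called between diets. The 8 dendritic cell markers summed to 68.2 to 108 CPM in WT chow, 74.7 to 102 in WT HFD, 77.5 to 95.8 on chow in meKO and 75.8 to 124 on HFD in meKO, with Bst2 the largest part of the sum. In WT 1 was called lower on HFD (median log2 fold change -0.81), in meKO 0 (median -0.19), and averaged over genotypes 1 was higher and 2 lower. In WT, Flt3 (5.29 to 7.09 CPM on chow, 2.69 to 4.01 on HFD), Cd209a (20.5 to 31.3, 9.12 to 16.8) and Clec9a (1.58 to 2.88, 1.14 to 1.48) had lower values on HFD without overlap, as Tlr9 did. WT diet ranges did not overlap, in either direction, for 39.3% of all genes. The WT ranges of the other dendritic cell markers overlapped. Their means on chow and HFD were 44 and 65 CPM for Bst2, 1.3 and 1.4 for Ccr9, and 3.5 and 3.4 for Siglech. For Zbtb46 they were 0.98 and 0.52 CPM, and for Xcr1 1.5 and 0.78. The part of dendritic cells in the Tlr9 result was not tested. Markers of resident large peritoneal macrophages (6 of 6 listed) summed to 42.7 to 188 CPM, with 1 lower in WT, and 1 higher and 1 lower on average. Neutrophil markers (7 of 9 listed, Camp and Ngp not among them) summed to 141 to 200 CPM, with 2 higher and 2 lower on HFD in WT. Between genotypes 1 was higher in meKO on each diet (0.081% of all genes called) and 3 averaged over diets (0.17%). T and NK cell markers (5 of 6 listed, all but Cd8a) summed to 7.21 to 18.2 CPM, with 1 lower on HFD in WT. Mast cell and eosinophil markers (5 of 7 listed, Epx and Prg2 not among them) summed to 59.4 to 323 CPM, both extremes in meKO chow, with 1 lower in WT. Mesothelial and fibroblast markers (6 of 6 listed) summed to 13.0 to 54.7 CPM, with 1 higher in WT and 2 higher averaged over genotypes. Of the 7 macrophage markers 1 was called lower in WT, and averaged over genotypes 4 were lower and 1 higher.

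The genes beside Tlr9 on chromosome 9 were read next. Of 17 listed genes that start within 500 kb of Tlr9, 6 were called between diets in WT, all lower on HFD, against 21.3% of all genes. Between genotypes on HFD 4 of 17 were called, all higher in meKO, against 0.081% of all genes. The largest difference was in Rpl29, a ribosomal protein gene that starts 206 kb from Tlr9, with means of 98.2 CPM in WT chow, 6.68 in WT HFD, 193 in meKO chow and 249 in meKO HFD. Its log2 fold change was -3.88 ± 0.24 between diets in WT and 5.22 ± 0.25 between genotypes on HFD (edgeR adjusted p = 1.03e-07). The interaction was called for 1 of the 17 neighbours, Rpl29 (4.24 ± 0.31, edgeR adjusted p = 2.53e-05), against 0.0162% of all genes. Rpl29 belongs to a family with many processed pseudogenes, and how shared reads were counted is not given in the sources used here, so its values are uncertain.

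The other 3 called between genotypes on HFD were Abhd14b at 1.16, Dusp7, a phosphatase of MAP kinases, at 0.93, and Alas1, which starts heme synthesis, at 0.90 on the log2 scale. Alas1 starts 10.9 kb from Tlr9. Between diets in WT, Abhd14b (-1.32), Rad54l2 (-0.85) and Dusp7 (-0.65) followed Rpl29 by p. Under the same 500 kb rule, 0 of 17 neighbours of Tlr9 were called between genotypes on chow, against 0.081% of all genes. There 4 had an unadjusted p under 0.05 (19.8% of all genes). Between diets in meKO 0 of 17 were called (0.105% of all genes), with 3 at an unadjusted p under 0.05 (15.9%). The genotype count on HFD was 1 of 17 without any 1 of the 3 WT HFD libraries, without meKO HFD library 3, or with limma-voom, and 2 without meKO HFD library 1 or 2. Of all genes, 0.0243% to 0.0891% were called in these runs. The diet count in WT was 2 without WT chow library 1 or WT HFD library 1 or 3, and 3 without WT chow library 2. Shares of all genes called were then 1.05%, 3.73%, 0.778% and 2.59%, in that order. No neighbour of the other 9 members was called between genotypes on HFD. The part of the chromosome 9 stretch around Tlr9 in the Tlr9 result was not tested. In these libraries, a difference local to that stretch in WT HFD and an effect of diet cannot be told apart.

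**Figure D4:**
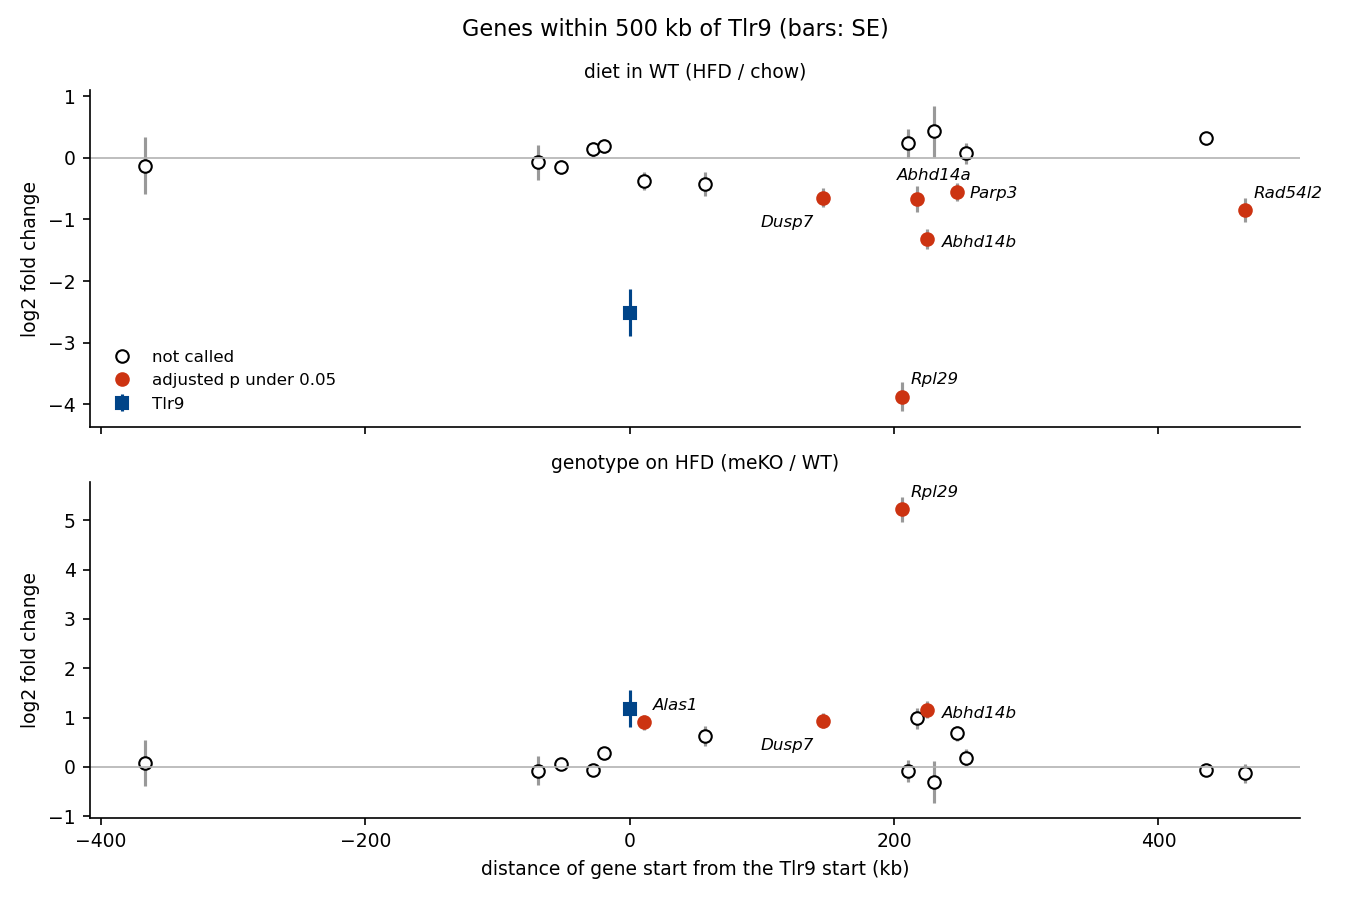
Log2 fold change (vertical axis, bars SE) of Tlr9 and the 17 listed genes within 500 kb against distance from the Tlr9 start in kb (horizontal axis), for diet in WT above and genotype on HFD below. Rpl29 is at -3.88 and 5.22, and the genes on the left-hand side of Tlr9 are not called in either panel.

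Tlr8 (Entrez gene 170744, GRCm38 chrX:167241123-167264329), an RNA-sensing receptor, had lower values on HFD. In WT the libraries stood at 219, 210 and 183 CPM on chow and at 167, 151 and 143 CPM on HFD, without overlap. In meKO they stood at 154, 176 and 238 CPM on chow and at 154, 167 and 150 CPM on HFD, where meKO chow library 3 was the highest of all and the ranges overlapped. The difference was -0.41 ± 0.14 in WT, with an edgeR adjusted p of 0.0543, and -0.27 ± 0.14 in meKO, with an adjusted p of 0.357, and neither was called. Averaged over genotypes Tlr8 fell by 0.34 on the log2 scale (SE 0.10, edgeR adjusted p = 0.0244), a call made in 15 of 20 alternatives. The WT difference was -0.44 with the correction for length and GC content (adjusted p = 0.0422).

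Tlr7 (Entrez gene 170743, GRCm38 chrX:167303380-167330574), the neighbour of Tlr8 on the X chromosome and a sensor of single-stranded RNA, moved in the same direction. Its WT values were 235, 268 and 309 CPM on chow and 209, 190 and 244 CPM on HFD, and its meKO values 203, 248 and 273 CPM on chow and 169, 220 and 212 CPM on HFD. The diet ranges overlapped in both genotypes. The difference was -0.34 ± 0.15 in WT, with an edgeR adjusted p of 0.111, and -0.27 ± 0.15 in meKO, with an adjusted p of 0.374. Averaged over genotypes Tlr7 fell by 0.30 (SE 0.11, edgeR adjusted p = 0.0443), which passed in 11 of 20 alternatives.

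Tlr13 (Entrez gene 279572, GRCm38 chrX:106143275-106160493), the most abundant Toll-like receptor per kilobase here, was called in no comparison. It stood at 350, 422 and 320 CPM in WT chow, 364, 385 and 394 in WT HFD, 375, 446 and 384 on chow in meKO, and 383, 365 and 373 on HFD in meKO. The 4 ranges overlapped, and the WT chow libraries spanned the widest range. The diet difference was 0.065 ± 0.11 in WT (95% interval -0.18 to 0.31) and -0.10 ± 0.11 in meKO (95% interval -0.35 to 0.14).

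Averaged over genotypes, 4 of 10 members were called between diets, against 30.2% of all genes. They were 3 endosomal receptors that fell (Tlr9, Tlr8 and Tlr7), where 15.3% of all genes were called lower, and Cd14, which rose, where 14.9% were called higher (0.30 ± 0.09, edgeR adjusted p = 0.0318). The Cd14 call was made in 11 of 20 alternatives and was lost with library totals and with the correction for length and GC content (0.15, adjusted p = 0.201). The median of the members was -0.16 beside -0.025 over all genes. The number of called members ranged from 1 to 6 when single libraries were left out. It was 1 without WT chow library 2 or meKO chow library 3, 2 without WT chow library 1, WT HFD library 1 or 3, meKO chow library 2 or meKO HFD library 3, and 6 without WT chow library 3, while the share of all genes called ran from 15.9% to 43.2% over the 12 libraries left out.

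Myd88 (Entrez gene 17874, GRCm38 chr9:119335934-119340018) joins the receptors to the Irak kinases. It stood at 73.1, 72.4 and 87.0 CPM in WT chow and at 87.2, 89.1 and 106 CPM in WT HFD, with each HFD library above each chow library by a margin that was small for the closest pair. In meKO the values were 92.0, 88.4 and 90.2 CPM on chow and 104, 93.5 and 92.7 CPM on HFD. The WT difference was 0.28 ± 0.11 (95% interval 0.045 to 0.52, edgeR adjusted p = 0.0774) and the meKO difference 0.10 ± 0.11 (adjusted p = 0.666). On chow the meKO libraries lay above the WT libraries, a difference of 0.22 ± 0.11 that was not called (adjusted p = 0.276).

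Irak4 (Entrez gene 266632, GRCm38 chr15:94543613-94568317), the kinase that binds Myd88 first, was measured at 45.3, 46.2 and 40.0 CPM in WT chow and at 35.2, 35.4 and 31.9 CPM in WT HFD. In meKO it stood at 39.2, 36.4 and 35.1 CPM on chow and 39.9, 29.0 and 34.3 CPM on HFD. WT chow was above WT HFD and above meKO chow without overlap, and the meKO diet ranges overlapped. The WT diet difference of -0.36 ± 0.12 missed the threshold (95% interval -0.63 to -0.10, edgeR adjusted p = 0.0507), and passed in 6 of 21 alternatives. It was -0.12 with the correction for length and GC content (adjusted p = 0.374).

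Traf6 (Entrez gene 22034, GRCm38 chr2:101678420-101701668), the ubiquitin ligase of the pathway, stood at 37.9, 38.5 and 27.5 CPM in WT chow and at 32.7, 33.8 and 28.5 CPM in WT HFD. Values in meKO were 30.5, 34.1 and 32.3 CPM on chow and 32.4, 25.4 and 28.8 CPM on HFD. WT chow library 3 lay below every WT HFD library, so the ranges overlapped. The diet difference was -0.13 ± 0.14 in WT (95% interval -0.43 to 0.17) and -0.16 ± 0.14 in meKO, and it was 0.15 in WT with the correction for length and GC content. No other RefSeq gene overlaps any of the 10 members.

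Transcript length moved with these differences. Across genes, the log2 fold change fell with exon length between diets in WT (Spearman's rho -0.55) and in meKO (-0.33), and between genotypes on chow (-0.61). The shortest members, Cd14 (1641 exonic bases) and Myd88 (1960), had higher values on HFD in WT. The longest, Traf6 (6169), Tlr4 (5467) and Irak4 (4759), stood at -0.13, -0.029 and -0.36, so the order of length was not the order of the differences. With length and GC content corrected, the WT diet difference was 0.24 for Cd14, 0.19 for Myd88, 0.15 for Traf6, 0.11 for Tlr4, -0.12 for Irak4, -0.44 for Tlr8 and -2.29 for Tlr9. Tlr9 and Tlr8 were then the 2 called members, where 13% of all genes were called between diets in WT.

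The rest of the pathway was read from 54 genes in 8 role lists, of which 52 were among the listed genes (all but Tlr12 and Sarm1). In WT 13 of 52 were called between diets, 3 higher and 10 lower, with a median log2 fold change of -0.17 beside -0.035 for all genes, and 21.3% of all genes were called. In meKO 0 of 52 were called between diets, against 0.105% of all genes, with 7 at an unadjusted p under 0.05 (15.9% of all genes). The interaction was called for 0 of 52, against 0.0162% of all genes, with 2 at an unadjusted p under 0.05 (6.13%). Between genotypes edgeR called 0 of 52 on chow and 0 of 52 on HFD, against 0.081% of all genes on each diet. On chow 9 had an unadjusted p under 0.05 (19.8% of all genes), and on HFD 1 did (4.56%). As for the whole table, whose shares were given above, the WT count moved with single libraries: it was 0 without WT chow library 1 or WT HFD library 3, 1 without WT chow library 2, 2 without WT HFD library 1 and 6 without WT HFD library 2. It was 6 with the correction for length and GC content, where 13% of all genes were called.

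By role, 3 of the 6 other receptors were called lower on HFD in WT, where 11.8% of all genes were called lower. Tlr5, the flagellin receptor, fell by 1.03 (SE 0.29, edgeR adjusted p = 0.0293), from a mean of 2.05 CPM on chow to 1.01 CPM on HFD. Tlr11, which senses profilin, fell by 1.24 (SE 0.36, adjusted p = 0.0315), from 1.35 to 0.563 CPM, with 14 to 57 counts per WT library. Cd180, a homologue of Tlr4 prominent on B cells, fell by 0.37 (adjusted p = 0.0477). The calls of Tlr5 and Cd180 were lost with the correction for length and GC content. Tlr1 (0.18 ± 0.14), Tlr3 (-0.24 ± 0.15) and Tlr6 (-0.16 ± 0.16) were not called. The B cell markers described above were lower in the same libraries, and their part in these receptors' differences was not tested.

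Of 3 listed TIR adaptors 2 were called lower in WT. For this and the role counts below, 11.8% of all genes were called lower and 9.5% higher. Tirap, which bridges Myd88 to surface receptors, fell by 0.63 and Ticam2, which bridges Ticam1 to Tlr4, by 0.50 (edgeR adjusted p = 0.0358 and 0.0244). The WT call was made in 13 of 21 alternatives for Tirap and 16 of 21 for Ticam2. Both were also called averaged over genotypes, at -0.51 and -0.43, in 20 of 20 alternatives each. Among 12 kinases and partners 1 fell, Tab3 (-0.66), and among 6 ubiquitin enzymes 1 fell, Peli2 (-0.95). Of 8 transcription factors Irf7 (0.78 ± 0.17, edgeR adjusted p = 0.0134) and Irf3 (0.47 ± 0.11, adjusted p = 0.0200), both drivers of type I interferon genes, rose, and Nfkb1 fell by 0.51. Of 9 negative regulators Nfkbib rose by 0.41, while Cyld, a deubiquitinase, and Pik3ap1 fell by 0.35 and 0.47. None of the 3 ligand recognition partners (among them Ly96, the Tlr4 partner) and none of the 5 folding and trafficking genes was called in WT. The direction of all 13 held in every alternative run, but 8 of the 13 lost the call with the correction for length and GC content. These were Cyld (-0.055, adjusted p = 0.703), Cd180 (-0.19, 0.199), Pik3ap1 (-0.21, 0.203), Tirap (-0.40, 0.0791), Tab3 (-0.43, 0.0580), Peli2 (-0.62, 0.0554), Nfkb1 (-0.38, 0.0570) and Tlr5 (-0.86, 0.0523), each with its edgeR adjusted p.

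**Figure D5:**
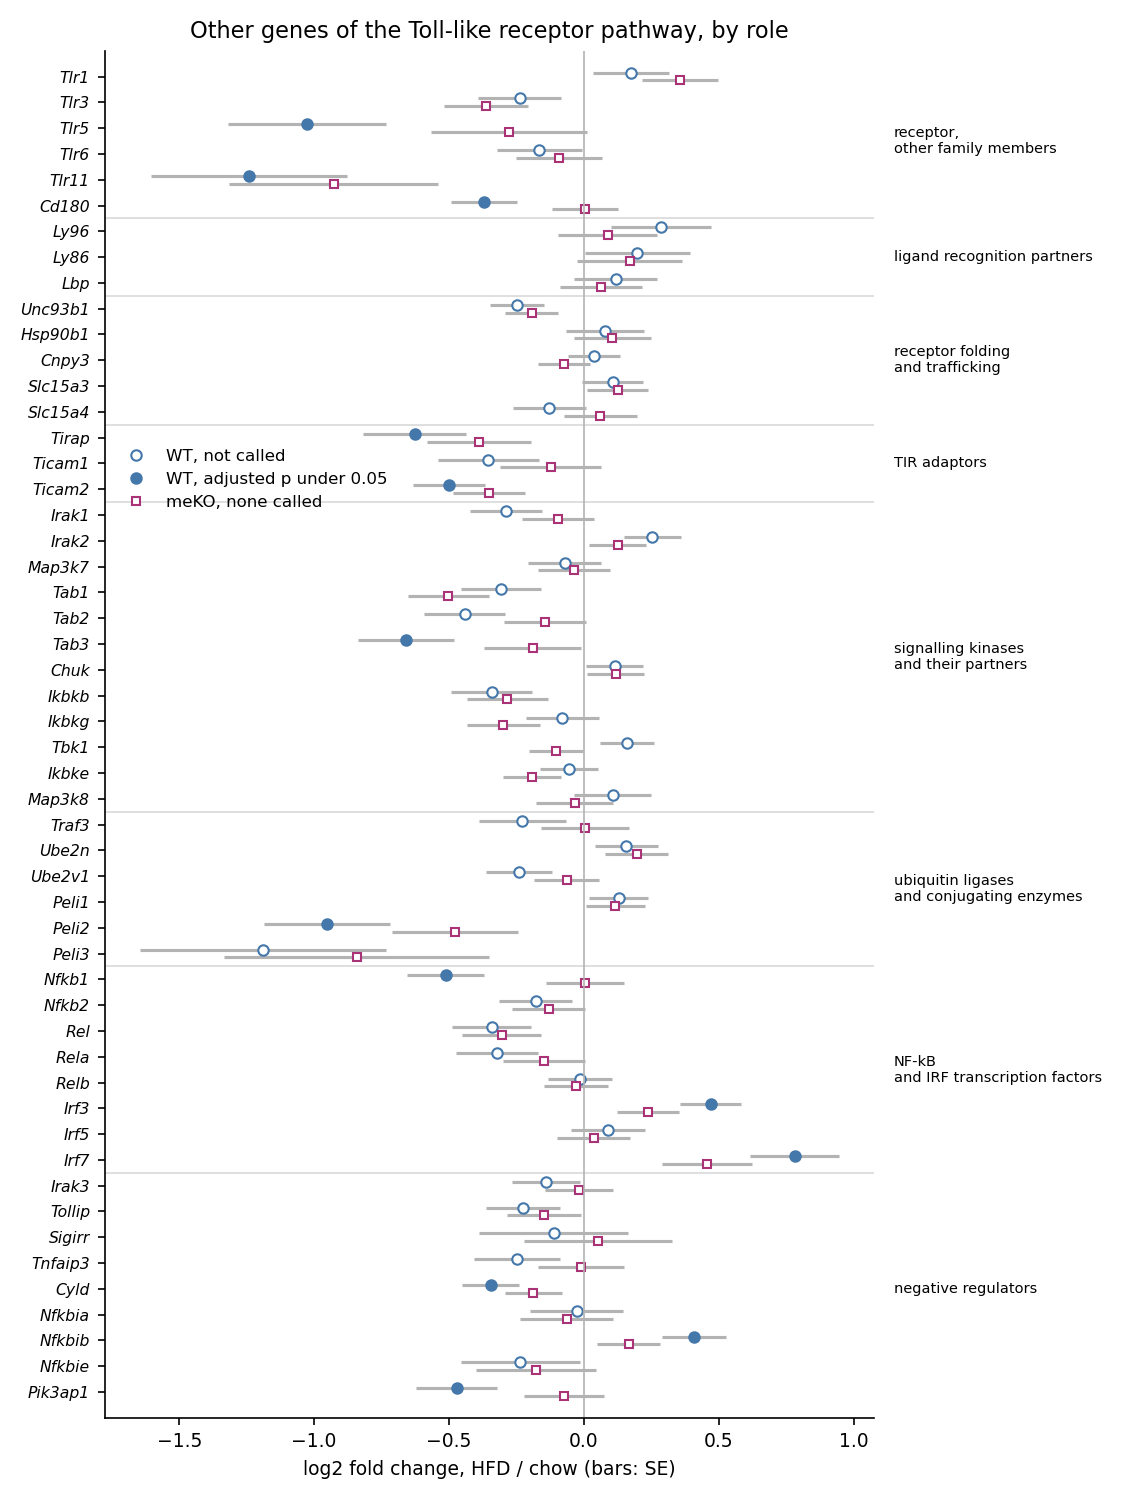
Log2 fold change HFD over chow (horizontal axis, bars SE) of the 52 listed pathway genes, grouped by role, in WT (circles, filled where called) and in meKO (squares, none called). Irf7 at 0.78, Irf3 at 0.47 and Nfkbib at 0.41 are the filled points to the right, and the other 10 filled points lie to the left.

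Averaged over genotypes 15 of 52 pathway genes were called between diets, 3 higher and 12 lower, against 30.2% of all genes. The higher genes were again Irf7 (0.62), Irf3 (0.35) and Nfkbib (0.29). Unc93b1, which carries the nucleic-acid receptors to endosomes, was among the lower ones at -0.22 (edgeR adjusted p = 0.0320), in 11 of 20 alternatives. Tlr11 stood at -1.08 and Tlr5 at -0.65, and the kinase partner Tab1 at -0.40. Rel, an NF-kB subunit (-0.32), Ikbkb, a kinase that releases NF-kB (-0.31), and Peli3 (-1.02) were also called, each in 11 alternatives. With the correction for length and GC content 5 of the 15 lost the call, namely Rel (-0.17, edgeR adjusted p = 0.158), Ikbkb (-0.15, 0.161), Peli3 (-0.83, 0.0994), Cyld (-0.10, 0.231) and Tlr5 (-0.54, 0.0562). The count was 7 without WT chow library 1 or meKO chow library 3, 8 without WT HFD library 3, 9 without WT chow library 2 and 25 without WT chow library 3, where all genes were called at 16% and 16.5%, 15.9%, 18% and 43.2%.

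The genes whose log2 CPM followed each member most closely over the 12 libraries were listed as a description, since the libraries share diet, depth and the length trend. Tlr9 was most like Tdp1, a DNA repair enzyme, with Pearson's r of 0.954, then Foxo4 (0.953) and Dmtn (0.950). Cd14 was most like Avpi1 (0.961), Ier2 (0.927) and Ltc4s, the leukotriene C4 synthase (0.924). Tlr8 was most like Upf2 (0.927), Cyld (0.926) and Mblac2 (0.919), and Tlr7 most like Zfp60 (0.913). Myd88 was most like Bcl7b (0.977), Irak4 most like Gga1 (0.957) and Traf6 most like Ppp6r3 (0.964). For Tlr2, Tlr4 and Tlr13 the first genes were Ermard (0.902), Lipa (0.903) and Pgap6 (0.901).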

How the data were processed

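RNA from thioglycolate-elicited mouse macrophages was extracted with Trizol and made into TruSeq libraries, per the labels' protocols. The authors deposited whole-number counts per gene for 12 libraries, and DESeq2 and the mm10 build are named per the submitters' processing notes. The aligner, counting tool and strand setting are not given in the sources used here. Each count column matched a sample title. The deposited counts summed to 25844958 to 37282772 per library over 12339 genes, 186 without a symbol, and these totals cover listed genes alone.

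Counts were tested with edgeR 4.0.16 (R 4.3.3): TMM factors, filterByExpr, which kept all genes, and the robust quasi-likelihood F test on 4 group means over all 12 libraries, two-sided, with Benjamini-Hochberg adjustment over all 12339 genes and calls at an adjusted p under 0.05. The code was tested on simulated data. The members and lists were chosen with earlier results of these data known. The text names all members, the other Tlr genes, up to 4 called genes per pathway list and comparison, the called neighbours within 500 kb and the 3 genes most like a member. For neighbours of members other than Tlr9 counts alone are given, and for 7 members the most alike gene alone.

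Positions and promoters came from RefSeq GRCm38.p6 (12097 genes matched), and exon lengths and GC content from GENCODE M21 (12049 genes, 97.6%). The same comparisons were repeated with scaling by library totals or by median-of-ratios factors, without the filter or with a floor of 10 counts per library, with limma-voom (limma 3.58.1, also with library quality weights) and DESeq2 1.42.0, after a length and GC correction, on the 2 groups compared alone, and leaving out each library. Counts of neighbours and pathway genes under these settings were added after seeing the data. Permuting 3 libraries against 3 exactly gives a p of 0.1 at the lowest, so no such test of single genes was made.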

Additional observations from a re-analysis of the deposited data

How the results depend on the processing

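Tlr9 kept its direction and its call between diets, in WT in all 21 alternatives and averaged over genotypes in all 20, while the other called members lost the call in some of them. Tlr9 has the fewest counts of the set, which limits its precision most. No paired analysis was possible because replicate numbers were given in accession order and so link no libraries between groups. The number of members called between diets in WT, 2, was 4 with library totals, 5 with DESeq2, 5 with quality weights (limma-voom) and 1 to 5 with a library left out. Averaged over genotypes, 4, it was 8 with quality weights and 1 to 6 with a library left out. Between genotypes on chow, 0, it was 3 with quality weights and 0 to 1 with a library left out, and averaged over diets, 0, it was 1 with quality weights. Shares of all genes called moved likewise: between diets in WT 22.2%, 28.5% and 52% for these 3 settings, and with quality weights 51% between diets averaged over genotypes, 32.8% between genotypes on chow and 31.1% averaged over diets. Over all settings the called neighbours of Tlr9 numbered 1 to 6 between genotypes on HFD and 2 to 13 between diets in WT, and the called pathway genes were 0 to 27 between diets in WT (7 with the 2 groups alone) and 7 to 27 averaged over genotypes. The share of all genes called ran over these settings from 0.0243% to 1.04% between genotypes on HFD. It ran from 0.778% to 52% between diets in WT and from 15.9% to 51% between diets averaged over genotypes. With library totals Tlr4 stood at 37.4 CPM per kb in WT chow and Tlr13 at 89.6 in meKO HFD, each more than 1 SD from its reported level. Log2 fold changes changed sign in 20 of 70 member results, none of them called under that setting. With the length and GC correction these were Traf6 0.17 for genotype on chow, Myd88 -0.019 for genotype on HFD, Tlr4 0.11 and Traf6 0.15 for diet in WT, Tlr2 -0.016 for the interaction, Tlr4 0.084, Cd14 -0.076, Traf6 0.046 for genotype averaged over diets, Tlr13 0.043 and Traf6 0.022 for diet averaged over genotypes. With quality weights these were Tlr8 -0.041 and Irak4 -0.016 for genotype on HFD, Tlr2 -0.11 and Traf6 0.042 for the interaction. With library totals these were Irak4 -0.0052 for genotype on HFD, Tlr13 -0.023 for diet in WT, Traf6 0.028 for the interaction, Cd14 -0.019 for genotype averaged over diets. With a library left out, the ranges for genotype averaged over diets were Cd14 -0.042 to 0.083, Tlr4 -0.074 to 0.012, Tlr8 -0.14 to 0.028. For diet in meKO they were Irak4 -0.22 to 0.0088. For genotype on HFD they were Irak4 -0.11 to 0.11, Myd88 -0.018 to 0.12, Tlr7 -0.18 to 0.011, Tlr8 -0.028 to 0.090. For diet averaged over genotypes they were Tlr13 -0.060 to 0.041. For diet in WT they were Tlr13 -0.0093 to 0.19, Tlr4 -0.076 to 0.017. For the interaction they were Tlr2 -0.14 to 0.10, Tlr7 -0.057 to 0.18, Tlr8 -0.0045 to 0.34, Traf6 -0.13 to 0.093. For genotype on chow they were Tlr8 -0.31 to 0.030. The cause of these changes was not tested.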
